A study of Mus musculus with 2 samples.

Results

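Mdm4 and 6 other genes of the p53 pathway were examined for anti-FLAG CUT&Tag peaks near them in the hippocampus of CamK-PARIS mice. PARIS, the product of Zfp746, is a zinc-finger protein that represses transcription. CUT&Tag, in which an antibody directs a transposase to cut and tag the DNA beside its target, was run on hippocampal tissue of C57BL/6J mice of the genotype CamK-PARIS, untreated, with 1 anti-FLAG library and 1 IgG library as negative control. The labels give no age, sex, number of animals or description of the transgene beyond the genotype's name. Both libraries carry that genotype, so no group without it was compared, and that the anti-FLAG peaks mark PARIS was not tested. Peaks were called by the authors in the anti-FLAG library against IgG, and with 1 library per antibody no value has a replicate error and nothing was tested between conditions.

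The genes are Mdm4, Mdm2, Trp53, Cdkn1a, Bax, Bbc3 and Pmaip1. Their peaks are those that the authors' annotation table assigns to 1 of these symbols, by the nearest transcription start site (TSS) of an annotated transcript. That gave 25 of the 99782 annotated peaks, and all 7 genes had at least 1, where 73.0% of the 21938 protein-coding genes had one. The members and the further gene lists below were named with results of these data in view, so each count is a description. In the main settings, counts over the members or lists are set beside the same count over all genes or peaks.

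The protein p53, encoded by Trp53, is a transcription factor that halts the cell cycle or starts apoptosis when DNA is damaged. Mdm2 is a ubiquitin ligase that marks p53 for degradation and is itself a p53 target, which closes a feedback loop, and Mdm4 is a related protein that binds p53 and blocks its activity as a transcription factor. Cdkn1a encodes the cyclin-dependent kinase inhibitor p21, Bax encodes a pore-forming protein of the outer mitochondrial membrane, and Bbc3 and Pmaip1 encode the BH3-only proteins Puma and Noxa, which promote apoptosis. An element reported for PARIS is the insulin response sequence, TATTTTT or TATTTTG on either strand.

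The stretches of DNA on which the results below turn are shown first, 5′ to 3′, from the GRCm38.p6 reference (mm10), with none of their bases in an annotated exon. The first is the 250 bases before the main start of Mdm4 (chr1:133025417-133025666, minus strand), which RefSeq's promoter table also holds; the 60 capitals lie inside the start-site peak.
Mdm4 promoter: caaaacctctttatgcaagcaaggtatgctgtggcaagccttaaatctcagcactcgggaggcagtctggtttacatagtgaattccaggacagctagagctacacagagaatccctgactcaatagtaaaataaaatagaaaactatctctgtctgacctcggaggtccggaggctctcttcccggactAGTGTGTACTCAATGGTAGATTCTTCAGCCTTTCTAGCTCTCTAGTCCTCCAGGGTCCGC
The second is the 103 bases between the divergent starts of Wrap53 and Trp53 (chr11:69580256-69580358, plus strand), all inside 1 peak and therefore in capitals.
Trp53 and Wrap53 starts: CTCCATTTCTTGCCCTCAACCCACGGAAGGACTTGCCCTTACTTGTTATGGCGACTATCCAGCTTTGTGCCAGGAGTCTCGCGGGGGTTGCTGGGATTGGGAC
The third lies inside the peak in intron 1 of Trp53 (chr11:69581286-69581412, plus strand), with its insulin response sequence in capitals.
Trp53 intron 1: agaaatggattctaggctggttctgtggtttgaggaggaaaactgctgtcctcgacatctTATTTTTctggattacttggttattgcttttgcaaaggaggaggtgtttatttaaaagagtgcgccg
The fourth is the whole peak upstream of Cdkn1a (chr17:29088503-29088731, plus strand), with an insulin response sequence on the minus strand and a p53 decamer in capitals.
Cdkn1a upstream peak: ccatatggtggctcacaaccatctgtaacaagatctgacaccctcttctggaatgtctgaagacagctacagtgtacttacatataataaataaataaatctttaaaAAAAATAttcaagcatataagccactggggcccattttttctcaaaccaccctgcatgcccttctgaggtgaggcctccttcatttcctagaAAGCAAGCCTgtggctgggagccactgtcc
The fifth surrounds the region of maximum signal, in capitals, of the tallest peak of Bbc3 (chr7:16309325-16309523, plus strand).
Bbc3 summit: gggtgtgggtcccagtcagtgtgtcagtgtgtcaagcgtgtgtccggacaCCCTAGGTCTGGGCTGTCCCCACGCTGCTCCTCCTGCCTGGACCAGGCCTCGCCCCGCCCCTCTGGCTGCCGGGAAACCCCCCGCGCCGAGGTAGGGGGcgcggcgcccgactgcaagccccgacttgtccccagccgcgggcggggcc
The sixth is the 250 bases before the start of Bax (chr7:45466899-45467148, minus strand), also in RefSeq's promoter table, with the 79 bases inside its peak in capitals.
Bax promoter: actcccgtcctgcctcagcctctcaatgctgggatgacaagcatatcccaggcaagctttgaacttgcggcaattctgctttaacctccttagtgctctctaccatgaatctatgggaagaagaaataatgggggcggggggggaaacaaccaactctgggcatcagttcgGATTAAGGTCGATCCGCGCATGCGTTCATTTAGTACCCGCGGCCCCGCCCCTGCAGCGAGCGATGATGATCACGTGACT

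Across the 7 genes, the tallest peaks lay at an internal start of Cdkn1a, at the principal start of Mdm4 and in intron 1 of Trp53, and no peak of Mdm2, Pmaip1 or Bax reached the median height of all peaks. Height is the authors' maximum signal in a peak, a coverage value whose scaling is not stated, and its percentile is the rank among all annotated peaks. The highest value per gene was 247 for Cdkn1a, 239 for Mdm4, 233 for Trp53, 186 for Bbc3, 100 for Mdm2, 97 for Pmaip1 and 44 for Bax. No spread is known for any of these, so neighbours in that order cannot be called different. The first 3 were in the top 10% of all peaks, which began at 189. By peak that is 3 of 25, where about 10% of all peaks are included by definition. The share of all protein-coding genes with such a peak is not given, so 3 of 7 genes has no background. Over the 25 peaks the maximum signal had a median of 96 and ranged from 15 to 247, beside a median of 101 over all annotated peaks, and 10 of the 25 were above that median. The median over the 7 genes of the highest percentile was 89.6, beside 66.1 over all protein-coding genes, counting genes without a peak as 0. A highest value also tends to rise with the number of peaks, whose median was 3 per gene for the 7 and 2 over all protein-coding genes. No adjustment was made for that.

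Many peaks of this list are of constant height: their total signal is at least 99% of maximum signal times width, so the coverage is flat from edge to edge. Of the 25 peaks, 15 were of that kind, beside 63.3% of all annotated peaks. The 3 tallest were not. The tallest peak of Bax and of Mdm2 was of constant height.

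**Figure D1:**
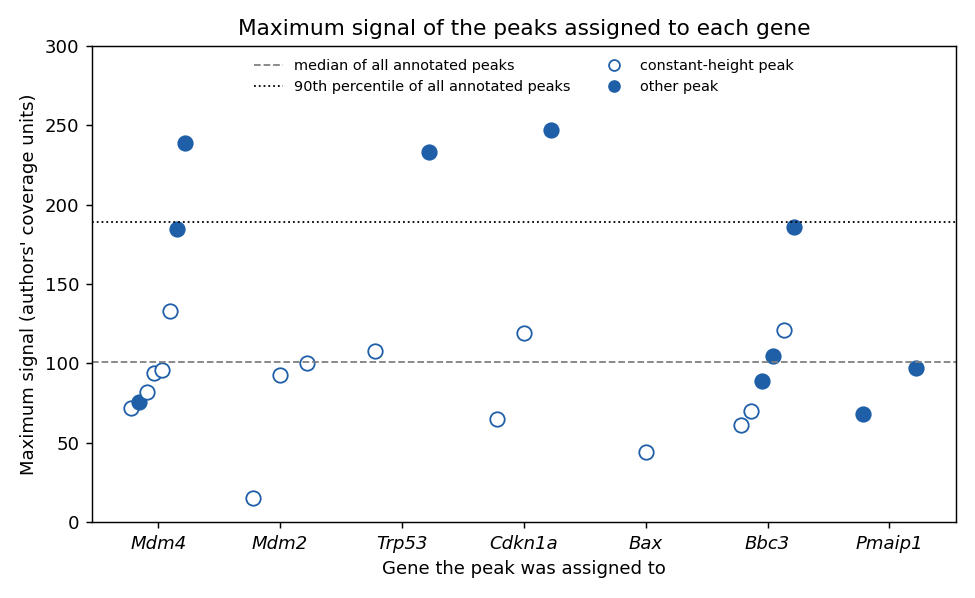
Maximum signal (vertical axis, the authors' coverage units) of each of the 25 peaks, by the gene it was assigned to; open circles are constant-height peaks, filled circles the others, and the lines mark the median (101) and the 90th percentile (189) of all annotated peaks. Cdkn1a, Mdm4 and Trp53 each have 1 peak above the upper line, and Mdm2, Bax and Pmaip1 have none above the lower one.

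Peaks near start sites were counted next. An assigned peak whose region of maximum signal was within 1 kb of a TSS was present at 4 of the 7 genes, Mdm4, Cdkn1a, Bax and Bbc3, beside 42.6% of all protein-coding genes. Without constant-height peaks 3 of 7 had one, since Bax dropped out, beside 28.8%. By position alone, whatever gene the authors assigned, a peak covered an annotated TSS of 5 of the 7 genes, the fifth being Trp53, beside 28.9%. These counts rest on 7 genes and are not tested.

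**Figure D2:**
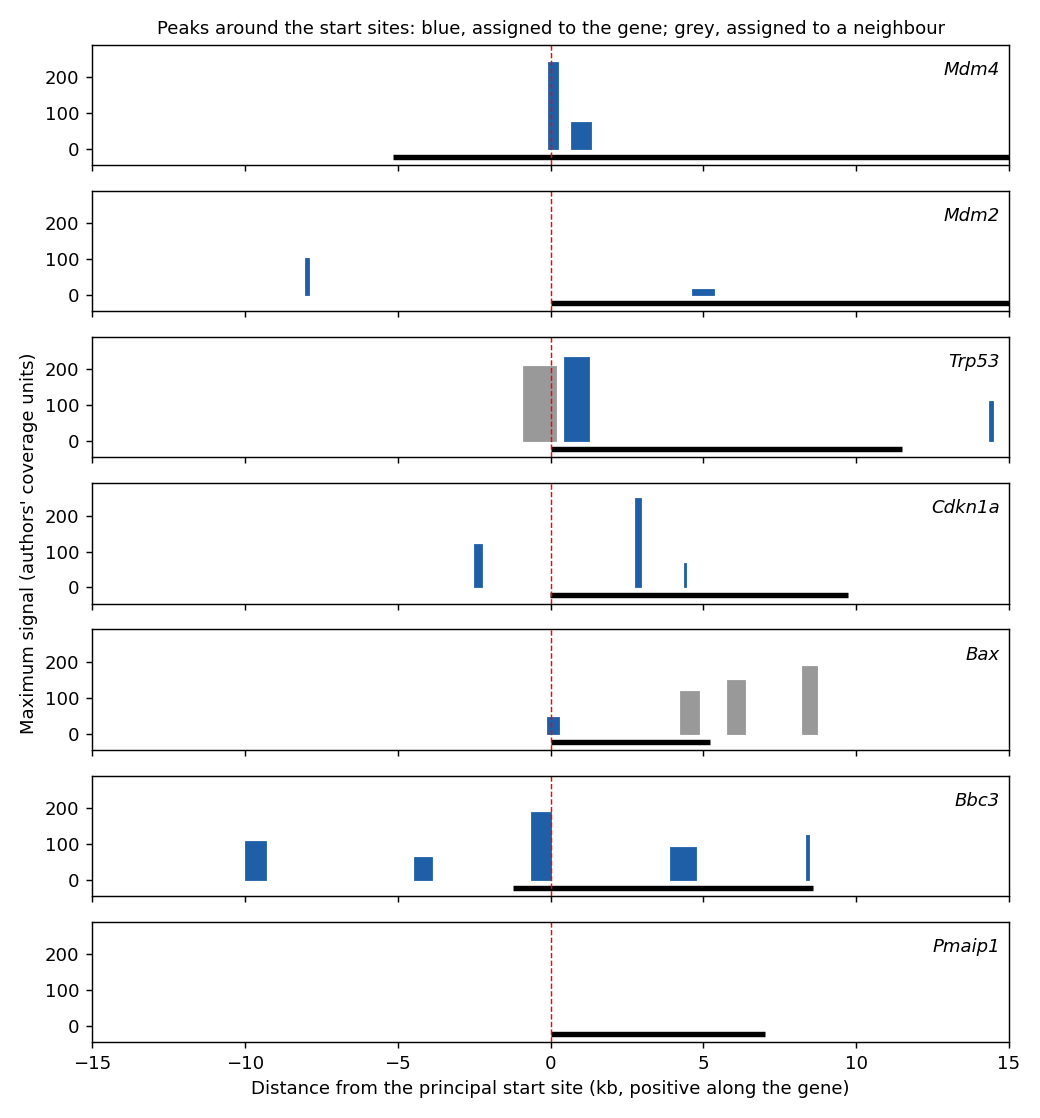
Peaks within 15 kb of the most upstream principal start of each gene (horizontal axis, kb along the gene; vertical axis, maximum signal in the authors' coverage units); blue bars were assigned to the gene, grey bars to a neighbour and are drawn only within 5 kb of the gene, bar width is peak width, and the black line is the annotated gene. A peak stands on the dashed start line of Mdm4, Bax and Bbc3, a grey one on that of Trp53, and none on those of Mdm2, Cdkn1a and Pmaip1.

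Mdm4 (ENSMUSG00000054387, chr1:132959484-133030561, minus strand) had the most peaks of the 7 genes, 8, and 85.2% of protein-coding genes had fewer. The tallest, at chr1:133025174-133025476, reached 239 (percentile 95.0) and was 303 bp wide. It covered the TSS of 8 of the 14 annotated transcripts, among them 4 of the 5 protein-coding ones. The gene's annotated 5′ end lies further upstream because of the fifth protein-coding transcript, whose start had no peak over it. This peak, with 63.0% GC, therefore sat on the start used by most annotated Mdm4 transcripts, covering the 60 capital bases printed above and the first exon.

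A second peak of Mdm4, at chr1:133024108-133024706, lay 710 bp inside the gene from the principal start, in an intron. It had a constant height of 72 (percentile 28.8). Of the other 6 peaks, 4 lay in intron 10 of 10 by the authors' annotation. They were 43539 to 48465 bp from the principal start and reached 76, 185, 82 and 133. The one of 185, at chr1:132977080-132977689, stood just under the top 10% of all peaks. The last 2 lay beyond the 3′ end of the gene, with constant heights of 94 and 96. Only 3 of the 8 peaks, of 239, 185 and 76, were not of constant height, and the one of 76 lay for 88.2% of its length in bases that the reference marks as repeats.

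Mdm2 (ENSMUSG00000020184, chr10:117688875-117710758, minus strand) had 3 peaks, all of constant height, and none at its start. The nearest, at chr10:117705404-117706102 in intron 3 of 11, lay 4656 bp inside the gene and had a height of 15, at percentile 2.09. The other 2 lay outside the gene, at 7913 bp before the start with a height of 100 and beyond the 3′ end with a height of 93. Of the pair of p53 inhibitors, Mdm4 thus had a start-site peak in this library and Mdm2 had none in the list.

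Trp53 (ENSMUSG00000059552, chr11:69580359-69591873, plus strand) had 2 assigned peaks. The peak at chr11:69580836-69581623 in intron 1 began 477 bp after the start and was 788 bp wide. It reached 233 (percentile 94.5), and its total signal of 127033, coverage summed over its bases, was the highest of the 25, at percentile 97.8. Its region of maximum signal was 1076 bp from the TSS assigned to it, just beyond the 1 kb limit used above. The second peak, a constant height of 108, lay downstream of the gene.

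The start of Trp53 itself was covered by a peak that the authors assigned to Wrap53, the divergent neighbour that encodes a telomerase and Cajal body protein. That peak, at chr11:69579474-69580538, reached 208 (percentile 92.1), was 1065 bp wide and was not of constant height. It held 5 of the 6 annotated Trp53 starts and 1 Wrap53 start, and all 103 bases between them that are printed above. The region of maximum signal of this peak lay 302 bp downstream of the Wrap53 TSS assigned to it. A peak over such a shared promoter cannot be given to either gene.

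Cdkn1a (ENSMUSG00000023067, chr17:29090976-29100727, plus strand) had 3 peaks and the highest maximum signal of the 7 genes. That peak, at chr17:29093776-29093949, reached 247 (percentile 95.5) over 174 bp, with a total signal of 38722 at percentile 74.1. It covered the start of 1 of the 5 annotated transcripts, which begins inside the gene, and began just past the start of another. Both are tagged as principal in GENCODE, and no peak covered the most upstream principal start. The maximum of this tallest peak lay in an exon of Cdkn1a, of the overlapping gene AC167363.2, or of both. The upstream peak, printed in full above, had a constant height of 119 (percentile 63.9), ended 2248 bp before that most upstream start, and lay for 53.3% of its length in repeats. The third, 56 bp wide and of constant height 65, lay in an intron.

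Among the apoptosis genes, Bbc3 (ENSMUSG00000002083, chr7:16308393-16318205, plus strand) had 6 peaks, 3 of them not of constant height. The tallest, at chr7:16309022-16309634, reached 186 (percentile 89.6), covered the principal start, and had its region of maximum signal 143 bp upstream of it. The stretch printed above around that region has 73.4% GC. A second peak within 1 kb of an annotated start, at chr7:16313560-16314363, reached 89 and lay beside the start of a transcript annotated as a retained intron. The other 4 had heights of 105, 61, 121 and 70. The one of 121 was in the 3′ UTR, and the one of 70 was in intron 8 of 8 of the neighbouring gene Sae1.

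Bax (ENSMUSG00000003873, chr7:45461697-45466898, minus strand) had a single peak, at chr7:45466623-45466977. It covered the starts of 5 of the 6 annotated transcripts but had a constant height of 44, at percentile 13.1, lower than the start-site peaks of Mdm4, Cdkn1a and Bbc3. Its maximum lay in an exon of Bax, of the overlapping gene Gm45808, or of both. The next peaks along the chromosome were assigned to Ftl1, the ferritin light chain gene beyond the 3′ end of Bax. They reached 116, 146 and 185, and the one of 116, at chr7:45462049-45462617, lay inside Bax. Bax was thus marked at its start by a low, flat peak only.

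Pmaip1 (ENSMUSG00000024521, 66458533 to 66465565 on chromosome 18, plus strand) had 2 assigned peaks, both distal and neither of constant height. They lay 16010 and 62626 bp before its TSS and reached 97 and 68, at percentiles 46.7 and 26.3. No peak of the list lay in Pmaip1 or within 5 kb of it. Of the 7 genes it was the only one with no peak in or within 5 kb of the gene.

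The peaks were then searched for motifs. The insulin response sequence was in the 200 bp centred on the maximum-signal region for 2 of 25 peaks (8.0%, 95% Wilson interval 2.22 to 25.0), beside 9.95% of all peaks. In the 400 bp around it, the count was 5 of 25, beside 19.3% of all peaks. Anywhere in the peak it was found in 3 of 25, beside 17.7%. These were the intron 1 peak of Trp53 and the upstream peak of Cdkn1a, both shown above, and the more distant peak of Pmaip1, which held 3 copies. None of the 8 Mdm4 peaks held it.

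Around the principal start, within 1 kb to either side, 4 of the 7 genes had an insulin response sequence, beside 61.1% of protein-coding genes. Mdm4 had 1, at chr1:133024812-133024818, which is 598 bp inside the gene and between its 2 start-site peaks, 106 bp from the nearer. Mdm2 had 2, with the nearest peak 4895 and 4962 bp away. Trp53 had 2, both inside a peak, 1 of them in the peak assigned to Wrap53. Pmaip1 had 2, with the nearest peak 15033 and 16584 bp away, and Cdkn1a, Bax and Bbc3 had 0.

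The p53 decamer, the 10-base element of which a p53 site holds 2, was found in 2 of 25 peaks, beside 12.6% of all peaks, once in the upstream peak of Cdkn1a and once in the Bbc3 peak inside Sae1. The peak over the Trp53 start, assigned to Wrap53 and so not among the 25, also held 1. It lies in the 103 bases printed above and is the only decamer within 1 kb of the principal Trp53 start. A full site, with 2 decamers at most 13 bp apart, was in 0 of 25, which allows a share of up to 12.0%, beside 0.103% of all peaks. Within 1 kb of the principal start all 7 genes had a decamer, beside 45.7% of protein-coding genes. The intervals and limits here cover counting error over peaks only, and a match is a run of letters, not a measured site.

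In base composition and length the peaks covered a wide range. GC content ran from 38.5% in the peak downstream of Trp53 to 70.4% in the Bax peak, and width from 56 to 804 bp. Bases marked as repeats made up at least 50% of 5 of the 25 peaks, beside 14.1% of all peaks.

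Gene length and the number of peaks were set side by side. Mdm4, the longest at 71.1 kb, had 6 peaks over its body, 0.844 per 10 kb, and Bbc3, with 9.81 kb, had 3, or 3.06 per 10 kb. Counting every peak over the gene body whatever its assignment, Bax had 3.84 per 10 kb, Cdkn1a 2.05, Trp53 1.74, Mdm2 0.457 and Pmaip1 0. The median over all protein-coding genes was 0.395, and 37.0% of them had no peak over the body. The Bax value rests on 2 peaks over 5.2 kb, both of constant height, and 1 of them was assigned to Ftl1.

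**Figure D3:**
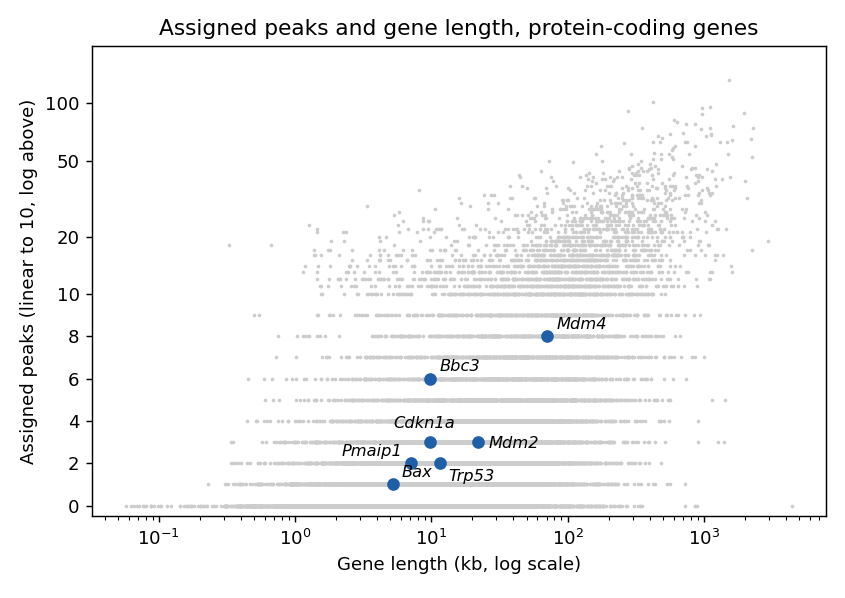
Number of assigned peaks (vertical axis, linear to 10 and logarithmic above) against gene length (horizontal axis, kb, log scale) for all 21938 protein-coding genes in grey and the 7 genes in blue. Mdm4 with 8 peaks and Bbc3 with 6 stand highest of the 7, and all 7 lie among the grey points.

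The wider pathway was read from 4 lists of 63 further genes, none of them among the 7. The names of the lists are groupings, and whether each gene in them is a target or regulator of p53 was not tested here. An assigned peak within 1 kb of a TSS was present at 33 of them (52.4%), beside the 42.6% of all protein-coding genes given above, and one that was not of constant height at 25 (39.7%), beside 28.8%. The median number of assigned peaks was 3 per list gene and 2 per protein-coding gene.

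Among 20 regulators of p53, 12 had a start-site peak, and 10 still did without constant-height peaks, beside 42.6% and 28.8% of all protein-coding genes. The tallest were those of Rpl11, a ribosomal protein that binds Mdm2, at 246, Daxx, a histone chaperone that binds Mdm2, at 189, and Ppm1d, a phosphatase that acts on p53 and its kinases, at 184. All 20 had at least 1 assigned peak, beside 73.0% of all protein-coding genes. So did 10 of 14 cell cycle and DNA repair targets, 15 of 16 apoptosis targets and 11 of 13 metabolic and feedback targets.

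Of the cell cycle and DNA repair targets, 5 of 14 (35.7%) had a start-site peak, and 4 (28.6%) still did without constant-height peaks. These were led by Rrm2b, a ribonucleotide reductase subunit, at 399, Ccng1, the cyclin G1 gene, at 300, and the kinase gene Plk3 at 119. No peak was assigned to Gtse1, Ddb2, Xpc or Cdc25c. Counting any peak, this share was below that of all protein-coding genes, and without constant-height peaks it was close to it.

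Of the apoptosis targets, 7 of 16 had one (43.8%), near the 42.6% of all protein-coding genes. Without constant-height peaks 4 had one (25.0%), below the 28.8% of all genes and the lowest share of the 4 lists on that count. The tallest stood at Bcl2l11, which encodes the BH3-only protein Bim, with 384, at Bcl2, which encodes an inhibitor of apoptosis, with 358, and at Siva1 with 210. Pidd1 had no assigned peak. The other 4, at Zmat3, Bcl2l1, Mcl1 and Bak1, reached 133, 125, 90 and 53. The start-site peak of Bbc3, at 186, lay between these groups, and that of Bax, at 44, lay below all 7.

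Of the metabolic and feedback targets, 9 of 13 had one (69.2%), and 7 (53.8%) did without constant-height peaks, the highest of the 4 lists on both counts. Among them were the peaks of Tigar, a fructose bisphosphatase, at 206, and Sesn1, a sestrin, at 201. Sco2 and Gls2 had no assigned peak. With 13 to 20 genes per list the order of the lists is a description.

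**Figure D4:**
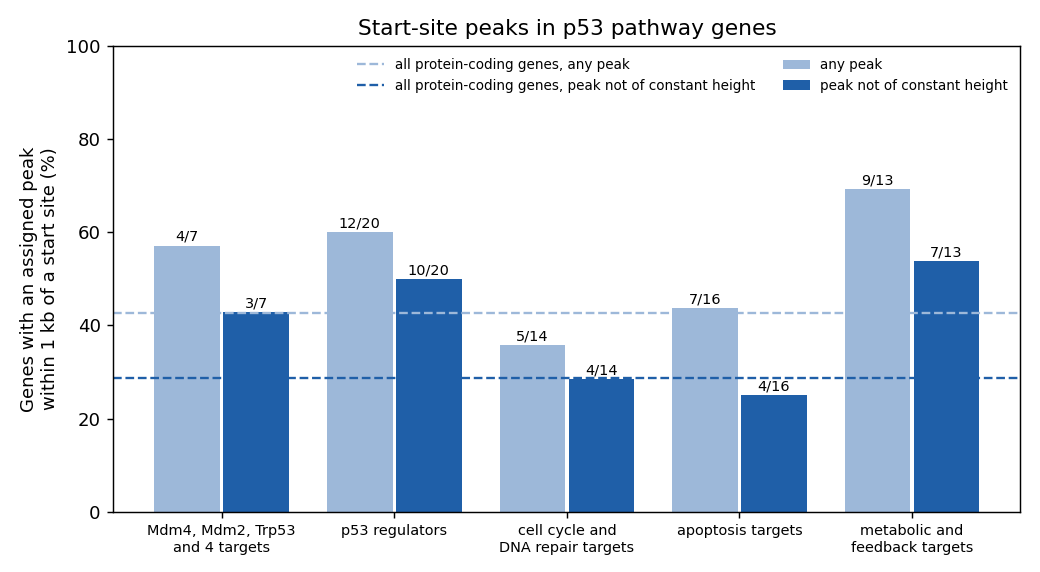
Share of genes with an assigned peak within 1 kb of a start site (vertical axis, percent) for the 7 genes and the 4 lists; light bars count any peak, dark bars peaks not of constant height, labels give genes with a peak over genes in the list, and dashed lines mark all protein-coding genes. The metabolic and feedback targets reach 69.2% and the cell cycle and DNA repair targets 35.7%, on either side of the 42.6% of all genes.

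As a check of the labelled tissue, peaks within 1 kb of a start were looked for at marker genes. They were present at 4 of 7 markers of hippocampal excitatory neurons (Prox1, Neurod2, Camk2a and Slc17a7, but not Neurod6, Emx1 or Zbtb20), beside 42.6% of all protein-coding genes. Both interneuron markers had one, as did 1 of 2 of oligodendrocytes and 0 of 2 each of astrocytes, microglia and non-brain tissue. With so few markers these counts do not establish the tissue. CUT&Tag peaks do not measure expression, and the depth of both libraries is unknown from the files.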

How the data were processed

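CUT&Tag was measured in 1 anti-FLAG and 1 IgG library. Per the labels' protocols, the authors used Bowtie2 and mm10 for alignment of trimmed reads, filtered out poor alignments and duplicates, and ran SEACR on the anti-FLAG library with IgG as its control; versions and SEACR settings are not given in the sources used here. The deposited peak list gives the maximum signal, and the deposited annotation table the total signal, the assigned gene and the distance to its TSS. Neither table's columns name a library: that they hold the anti-FLAG peaks rests on the series' design text and the library name in the labels. No IgG file or track was analysed here, and depth is unknown.

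Both tables were joined on the region of maximum signal, which left out 15 of 99797 peaks without annotation. Genes, transcripts and principal (APPRIS) starts came from GENCODE M21 and sequence from GRCm38.p6, both of the mm10 build. Where several principal starts exist, the most upstream was used. Repeats are the soft-masked bases of the reference. Motifs were searched on both strands with Python 3.11.15 and pandas 2.3.3, and the search was tested on planted motifs. The p53 decamer is the standard palindromic consensus.

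The members, the lists and the constant-height measure were chosen with earlier results of these data known. No test was run, since each antibody has 1 library and peaks of 1 library are not replicates. Genes named are the 7 members, neighbours with a peak within 5 kb of a member, and, per list, the 3 with the tallest start-site peak and those with no peak; 1 gene that this rule names is not reported here. Zmat3, Bcl2l1, Mcl1 and Bak1, and Sae1, AC167363.2 and Gm45808, the last 3 of which hold or overlap a member's peak, were named after the values were seen, and the counts of repeats, covered starts, decamers at starts and peaks per length were also added then. Of the 7 members, 6 had a promoter in the RefSeq table.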

Additional observations from a re-analysis of the deposited data

How the results depend on the processing

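The 7 results were recomputed under 46 alternatives, of which 25 left a count within 1.5 times its value, a percentile equal or a share within its Wilson interval, and 21 moved it. Stricter subsets hold fewer peaks by construction, and otherwise the cause was not tested. For subsets by signal or width no share over all genes is given, so those counts cannot be read against a background. The median highest percentile of 66.1 over all protein-coding genes belongs to the main setting only. The number of the 7 genes with an assigned peak was 4 with maximum signal above the median, 3 in the top 10% by maximum signal and 1 in the top 10% by total signal. The number with a start-site peak was 2 and 0 in those last subsets. The 25 peaks fell to 10 without constant-height peaks, 10 above the median, 3 and 1 in the top 10% by maximum and total signal, and 16 at least 200 bp wide. The 8 peaks of Mdm4 became 3, 3, 1 and 0 in the first 4 of these subsets, and 5 with peaks within 1 kb merged. The median highest percentile was 0 in both top 10% subsets, 63.9 for peaks at least 200 bp wide and 74.1 ranked by total signal. The number of list genes with a start-site peak was 11 and 9 in the top 10% by maximum and total signal. No paired analysis was possible because each antibody has 1 library. Unknown depth and the single library limit every value.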
